A study of Homo sapiens with 6 samples.

Results

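Matrix metalloproteinases (MMPs), disintegrin metalloproteinases (ADAMs), their secreted relatives with thrombospondin repeats (ADAMTS) and the tissue inhibitors of metalloproteinases (TIMPs) were examined in Hep3B cells, a human hepatocellular carcinoma line. The members were all protein-coding rows of the deposited gene table whose symbol is MMP, ADAM or ADAMTS followed by a number, or TIMP followed by a digit, with at most 1 letter after it. This name rule, which uses no expression value, gave 50 of 27009 genes, namely 18 MMPs, 4 TIMPs, 13 ADAMs and 15 ADAMTS genes. All cells carried a knockout of endogenous PD-L1. The vector group (3 libraries) had received the empty vector, and the nPD-L1 group (3 libraries) a mutated PD-L1 that is held in the nucleus, delivered by lentivirus from a CMV promoter. The comparison asked which genes differ when nuclear PD-L1 is overexpressed in cells without their own PD-L1. The labels do not say whether the libraries of a group came from separate cultures, so p values measure only the spread between these libraries, which may be technical.

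Metalloproteinases of these families cut proteins outside or at the surface of the cell, with a zinc ion in the active site. MMPs degrade collagens, proteoglycans and other matrix proteins, and the membrane-type MMPs do so at the cell surface. ADAMs release the outer parts of membrane proteins such as growth factors, cytokines and Notch receptors, and some ADAMs lack the active site and act in adhesion. ADAMTS proteases process proteoglycans, procollagens, fibrillin-rich fibers and von Willebrand factor, while TIMPs bind and block active metalloproteinases.

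The deposited values were gene-level reads after division by the size factor of each library, called scaled reads here, and the libraries held 17427519 to 22253295 reads on genes. CD274, which encodes PD-L1, had 28.3, 38.4 and 47.8 scaled reads in vector replicates 1, 2 and 3 and 16.8, 19.2 and 30.9 in replicates 1, 2 and 3 of the libraries labelled nPD-L1. CD274 was therefore not higher in the libraries labelled nPD-L1, the groups overlapped, and the difference was -0.76 on the log2 scale (limma, adjusted p = 0.338; two-sided exact permutation p = 0.2). A tested difference with nPD-L1 is thus one between libraries as they are labelled. Of the 8 hepatocyte markers listed, AFP had no row and the other 7 had one. Among these, ALB, APOA1, APOB and TTR each stayed under 3 scaled reads in every library, SERPINA1 had 7.91 to 41.4 and FGB 962 to 1540.5, while HNF4A, a hepatocyte transcription factor, rose from 19.2, 11.3 and 6.24 to 51.3, 51.6 and 33.8 (log2 fold change 1.91, limma adjusted p = 0.0232). Thus 4 of the 7 markers, among them albumin, were nearly absent, which goes against the liver label. Of the other 3, SERPINA1 and HNF4A were low and only FGB was well expressed. Their means over the 6 libraries were 4.05, 3.95 and 424 scaled reads per kilobase of gene length. The libraries are called by their labels. The summed endothelial markers (3 of 5 with a row) reached 8.09 scaled reads at most. The summed leukocyte markers (4 of 6 with a row) were 33.3 to 57.2 in the vector and 37.4 to 59.7 in the nPD-L1 libraries, most of it ITGAM (31.3 to 56.3, not called), while PTPRC, the pan-leukocyte marker, reached 2.52. The summed fibroblast markers (5 of 7 with a row) were 174 to 245 in the vector and 594 to 659 in the nPD-L1 libraries, a difference that lay in COL1A1. LUM did not pass (log2 fold change 0.10, limma adjusted p = 0.886), and DCN, PDGFRA and PDGFRB were under 10 in every library. The part of these markers in the results below was not tested. In such bulk libraries, fewer cells of a type and less RNA per cell cannot be told apart.

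Among the protease and inhibitor genes, 3 were higher with nPD-L1: ADAM19, a membrane protease that releases the growth factor neuregulin, at 3.59 times its vector mean; ADAMTS10, which acts on fibrillin fibers, at 2.12 times; and the inhibitor TIMP2 at 1.36 times. These 3 passed the adjusted threshold given below, and none of the 31 members tested was called lower. Of 18 alternative settings of the test, ADAM19 passed in 18, ADAMTS10 in 14 and TIMP2 in 9. The levels of the other abundant members (TIMP1, ADAM9, ADAM15, MMP7 and ADAM10) differed by less than the spread between libraries, and the secreted collagenases and gelatinases did not pass the filter on low values. The test was limma on log2(value + 1), so that fold changes of low genes are understated, over the 15076 genes with at least 10 scaled reads in at least 3 libraries, with the Benjamini-Hochberg adjustment over all of them and a threshold of 0.05. It covered 31 of the 50 members. The share called higher was 4.04% over all genes tested and 9.68% (3 of 31) over the members, and the share called lower was 0.922% over all genes and 0 of 31 over the members. At an unadjusted p under 0.05, 5 of the 31 members passed, all of them higher. This is a share near that of all genes tested, which was 14.2% in either direction. The median log2 fold change was 0.063 over the members tested and -0.019 over all genes tested, with 19 members above 0 and 12 below it.

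Promoter windows from RefSeq (GRCh38.p14), here the 250 bases before each transcription start, were found for 29 of the 50 members, and those of the members with the largest called differences, ADAM19 and ADAMTS10, are shown beside that of MMP7, the only one of the 29 with the letters of the AP-1 motif long described in MMP promoters. They are written 5′ to 3′ in the sense of the gene, with matches to TGACTCA or TGAGTCA (AP-1) and to CAGAC (the SMAD-binding letters) on either strand in capitals. The ADAM19 window is chr5:157575776-157576025 on the - strand, the ADAMTS10 window chr19:8610716-8610965 on the - strand and the MMP7 window chr11:102530748-102530997 on the - strand.
ADAM19: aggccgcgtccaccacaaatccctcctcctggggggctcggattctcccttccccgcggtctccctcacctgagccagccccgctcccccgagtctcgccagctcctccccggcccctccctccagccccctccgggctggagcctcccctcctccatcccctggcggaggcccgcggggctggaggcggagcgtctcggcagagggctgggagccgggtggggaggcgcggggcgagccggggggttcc
ADAMTS10: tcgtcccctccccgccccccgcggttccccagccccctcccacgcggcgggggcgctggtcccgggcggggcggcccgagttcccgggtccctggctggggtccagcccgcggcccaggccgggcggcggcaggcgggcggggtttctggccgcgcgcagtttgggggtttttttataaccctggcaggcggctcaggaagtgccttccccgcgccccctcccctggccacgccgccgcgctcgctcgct
MMP7: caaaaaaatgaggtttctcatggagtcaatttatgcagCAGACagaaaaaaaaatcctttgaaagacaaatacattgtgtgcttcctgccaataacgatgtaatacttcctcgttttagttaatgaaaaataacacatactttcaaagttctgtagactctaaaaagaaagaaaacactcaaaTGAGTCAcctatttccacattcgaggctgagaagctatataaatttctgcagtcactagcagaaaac
The first 2 windows are rich in G and C (76.4% for ADAM19 and 78.4% for ADAMTS10) and hold neither motif, whereas the MMP7 window has 33.6% G and C, 1 AP-1 match and 1 CAGAC match. The median G and C content over all 35116 windows of this length was 58%. The AP-1 letters were in 1 of the 29 member windows and in 4.2% of all windows, and CAGAC was in 14 of the 29 and in 38% of all. Members without a window, among them MMP1, MMP3, MMP9, MMP13, TIMP2 and ADAMTS15, were not searched. The share with AP-1 letters therefore does not cover them. A match is a description of letters only, and MMP7, which holds both motifs, did not pass the test between the groups.

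Levels can be compared between genes only per length, and are given here as scaled reads per kilobase of gene length, averaged over the 6 libraries. TIMP1, the secreted inhibitor of most MMPs, stood highest at 2029.6 (a level above that of 97.7% of the genes tested), followed by ADAM9, a widely expressed membrane protease, at 866 (93.7%). Next came ADAM15 at 297, TIMP2 at 232, MMP7 at 209.7, ADAM10 at 133, MMP17 at 119, ADAM17 at 98.4, MMP15 at 85.2 and ADAMTS15 at 66.8, and ADAM19 followed at 58.5. TIMP1 alone made up 39.0 to 52.2% of the members' sum per kilobase in each library and ADAM9 16.8 to 22.7%. The MMPs together made up 10.4 to 12.4%, with ranges that overlapped between the groups. The ADAMTS genes were the smallest share, with summed levels of 91.9 to 143 scaled reads per kilobase in the vector libraries and 182 to 197 in the nPD-L1 libraries. The largest rises were in ADAMTS15 (means of 41.3 and 92.4 per kilobase) and ADAMTS10 (19.6 and 41.6). Some ADAMTS genes went the other way, ADAMTS16 the most (27.6 and 17.6).

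**Figure D1:**
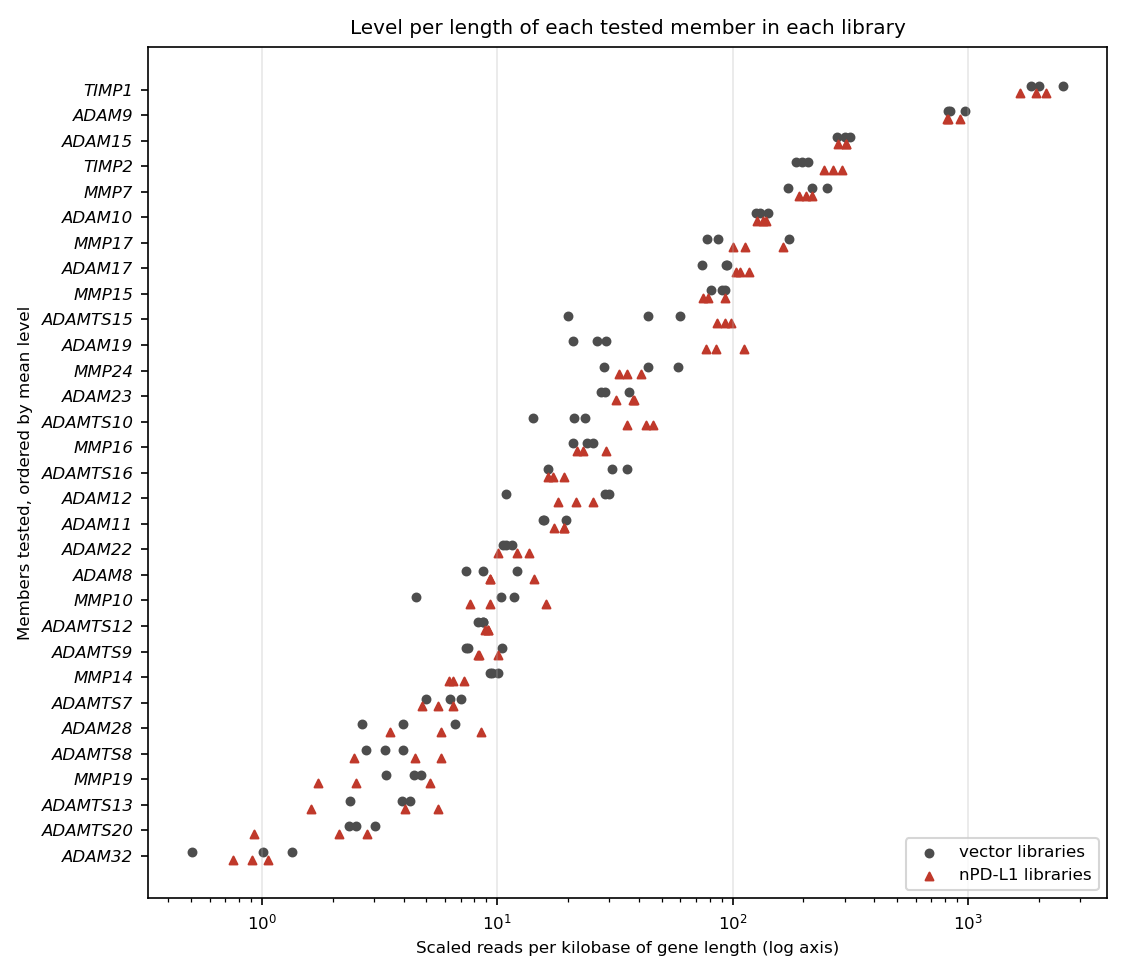
Level of each of the 31 members tested in scaled reads per kilobase of gene length (log axis), 1 circle per vector library and 1 triangle per nPD-L1 library. TIMP1 and ADAM9 lie at the top at about equal levels in both groups, and the triangles of ADAM19, ADAMTS10, TIMP2 and ADAMTS15 lie to the right of their circles.

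The neighbors in this order were not all apart. In the vector libraries, the levels per kilobase of TIMP2 (197 ± 11.9, SD, n = 3) and MMP7 (214 ± 40.6) did not differ beyond their spread. MMP17 (113 ± 53.4) was not apart from ADAM10 (132 ± 7.87), ADAM17 (87.4 ± 11.7) or MMP15 (88.1 ± 6.45), and ADAM17 was not apart from MMP15. TIMP1 and ADAM9 stood apart from each other and from all members below them in every library. With nPD-L1, ADAM19 (91.5 ± 17.9) overlapped in level per kilobase with ADAMTS15 (92.4 ± 6.53), MMP15 (82.3 ± 9.65) and ADAM17 (109 ± 7.11).

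The ADAMs with an active site (9 with a row, 8 tested) included the clearest difference. ADAM19 (ENSG00000135074; GRCh38 chromosome 5, 157395534 to 157575775, - strand) had 205, 162 and 222 scaled reads in vector replicates 1, 2 and 3 and 859.7, 597 and 658 in nPD-L1 replicates 1, 2 and 3. The groups were far apart, and the lowest nPD-L1 library lay well above the highest vector library. The mean rose from 196 ± 31.4 to 705 ± 138 (SD, n = 3), a log2 fold change of 1.83 (SE 0.17, 95% interval 1.45 to 2.21) with an adjusted p of 9.62e-05 by limma, while the two-sided exact permutation test of 3 against 3 gave 0.1, the smallest p it can give. The difference passed the threshold under all 18 alternative settings run for it. Whether these NEBNext Ultra libraries mark strand was not checked in the reads. If they do not, reads from exons that overlap on opposite strands cannot be told apart. In GENCODE 29, 62 of the 7704 exonic bases of ADAM19 (0.805%) are shared with exons on the opposite strand, and the part of such reads in the difference was not tested. The overlapping gene NIPAL4 also had more scaled reads with nPD-L1 (means of 20.8 and 78.2), and CYFIP2 had 942 and 1008 (both genes named after their values were seen).

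ADAM17, which releases TNF and several ligands of the epidermal growth factor (EGF) receptor, had 1009, 794 and 1015 scaled reads in the vector and 1113, 1154 and 1261 in the nPD-L1 libraries. The groups did not overlap, with vector replicate 2 the lowest of the 6. The log2 fold change of 0.33 (SE 0.12) had an unadjusted p of 0.0204 and did not pass after adjustment (limma, adjusted p = 0.212), nor in any of the 18 alternatives. Of its exonic bases, 13.6% are shared with exons of genes on the opposite strand.

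ADAM10, the main protease that releases the outer part of Notch receptors, had 2025, 2122 and 2277 scaled reads in the vector and 2053, 2172 and 2242 in the nPD-L1 libraries. ADAM9 had 5793, 5678 and 6721 (vector) and 5681, 5621 and 6426 (nPD-L1), and ADAM15, which also binds integrins, 1980.3, 2072 and 1828 (vector) and 2003, 2002 and 1849 (nPD-L1). In all 3 genes the groups overlapped, and the 95% intervals of the log2 differences were -0.20 to 0.22 for ADAM10, -0.28 to 0.20 for ADAM9 and -0.22 to 0.21 for ADAM15. The remaining 3 tested genes of this group did not pass either. In means ± SD over 3 libraries, the vector given first here and below, ADAM12 had 229 ± 105 and 214 ± 36.1 scaled reads (log2 fold change 0.031), with vector replicate 2 far below the other vector libraries (295, 107 and 284). ADAM8 had 45.1 ± 11.8 and 52.5 ± 13.8 (0.22), and ADAM28 41.5 ± 18.9 and 55.6 ± 23.6 (0.42).

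The 4 ADAMs without an active site were all tested and none was called. Per kilobase, ADAM23 was highest at 33.4, followed by ADAM11 at 17.8 and ADAM22 at 11.5. ADAM23 had 198 ± 30.3 and 231 ± 22.7 scaled reads (log2 fold change 0.22), ADAM11 81.3 ± 10.6 and 88.7 ± 5.01 (0.13), and ADAM22 134 ± 6.38 and 146 ± 21.3 (0.11). ADAM32 had 9.57 ± 4.26 and 9.09 ± 1.52 (0.012). It lies 1.8 kb from ADAM9 on chromosome 8, yet its level per kilobase was 0.929 against 866 for ADAM9.

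**Figure D2:**
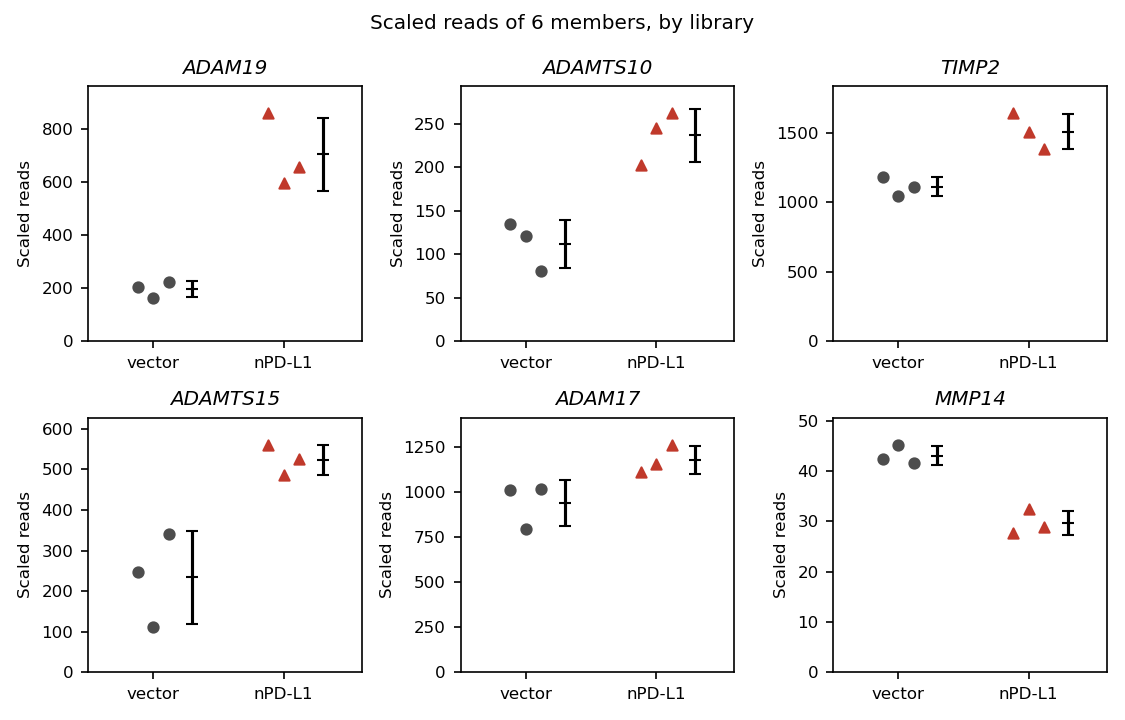
Scaled reads of 6 members in each library (vertical axes from 0), with circles for vector and triangles for nPD-L1 replicates 1 to 3 from left to right and the mean ± SD beside them. In ADAM19, ADAMTS10, TIMP2, ADAMTS15 and ADAM17 all triangles lie above the circles, in MMP14 all lie below, and only ADAM19, ADAMTS10 and TIMP2 passed the adjusted threshold.

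The ADAMTS proteases held the second called protease. ADAMTS10 (ENSG00000142303; GRCh38 chromosome 19, 8580242 to 8610735, - strand) had 134, 121 and 81.1 scaled reads in the vector and 203, 246 and 262 in the nPD-L1 libraries. The groups did not overlap, and vector replicate 3 was the lowest. The mean rose from 112 ± 27.7 to 237 ± 30.4 (SD, n = 3), a log2 fold change of 1.10 (SE 0.21, 95% interval 0.64 to 1.56, limma adjusted p = 0.0104). It passed in 14 of 18 alternatives (adjusted p from 0.000319 to 0.0805) and was lost without nPD-L1 replicate 3 (0.0805), without trend and robust moderation (0.0543), and on 4 libraries with edgeR (0.0727) or limma (0.0542). No exonic base of ADAMTS10 or ADAMTS15 is shared with another annotated exon.

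ADAMTS15, one of the proteases that cut the proteoglycans aggrecan and versican, had 248, 113 and 341 scaled reads in the vector and 561, 486 and 525 in the nPD-L1 libraries. The nPD-L1 libraries were close together, and the vector libraries were spread out, with replicate 2 lowest. The means were 234 ± 115 and 524 ± 37.0 (SD, n = 3), with a log2 fold change of 1.30 (SE 0.32, 95% interval 0.57 to 2.02). Its unadjusted p was 0.00259, and its adjusted p of 0.0516 (limma) missed the threshold narrowly. It passed in 7 of 18 alternatives. Leaving out vector replicate 2 gave an adjusted p of 0.00104 with a smaller log2 fold change of 0.84, and with no filter on low values the adjusted p was 0.4.

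The other proteoglycan-cleaving ADAMTS genes were low. ADAMTS9 had 90.4 ± 18.7 and 95.1 ± 11.2 scaled reads in the 2 groups (log2 fold change 0.085), ADAMTS8 15.2 ± 2.8 and 19.1 ± 7.52 (0.25), and ADAMTS20 19.0 ± 2.54 and 14.1 ± 6.85 (-0.51). ADAMTS8 lies 20 kb from ADAMTS15 on chromosome 11 and stood at 3.8 per kilobase against 66.8. ADAMTS1 and ADAMTS4 were below the filter, with at most 5.2 and 1.93 scaled reads, where 3 reads of a library correspond to 2.52 to 3.39 scaled reads.

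Of the other ADAMTS genes, ADAMTS16 went the opposite way without passing, and it is described after its values were seen. It had 181, 96.0 and 209 scaled reads in the vector and 96.6, 112 and 101 in the nPD-L1 libraries, so that vector replicate 2 lay among the nPD-L1 values. Its log2 fold change was -0.57 (limma, adjusted p = 0.371), and without vector replicate 2 it was -0.91 with an adjusted p of 0.00414, the only one of 18 alternatives in which it passed. ADAMTS12 had 84.8, 81.3 and 85.2 (vector) and 89.1, 87.0 and 89.7 (nPD-L1), groups that do not overlap at a log2 fold change of only 0.08 (adjusted p = 0.877). ADAMTS7 had 47.1 ± 8.06 and 43.5 ± 6.59 (-0.11), and ADAMTS13, which cuts von Willebrand factor, 20.1 ± 5.77 and 21.4 ± 11.4 (-0.027). The procollagen-processing ADAMTS3 and ADAMTS14 did not pass the filter, with at most 2.08 and 11.1 scaled reads, and neither did ADAMTS6 (at most 6.06) and ADAMTS17 (at most 5.65).

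TIMP2 was the inhibitor that differed. TIMP2 (ENSG00000035862; GRCh38 chromosome 17, 78852977 to 78925387, - strand) had 1178, 1044 and 1109.9 scaled reads in the vector and 1639.5, 1502 and 1383 in the nPD-L1 libraries, with no overlap. The mean rose from 1110.5 ± 67.2 to 1508 ± 128 (SD, n = 3), a log2 fold change of 0.44 (SE 0.10, 95% interval 0.21 to 0.67) that passed with an adjusted p of 0.0369 (limma). This call was the least stable of the 3, passing in 9 of 18 alternatives. It was lost when any 1 library other than vector replicate 2 was left out (adjusted p from 0.0599 to 0.167) and in the 3 fits on 4 libraries (0.373 to 0.419). Besides blocking MMPs, TIMP2 bridges the pro-form of MMP2 to MMP14 at the cell surface for activation. In these libraries MMP2 was at 9.08, 10.2 and 5.2 (vector) and 9.24, 6.07 and 18.3 (nPD-L1) scaled reads, below the filter. Of the exonic bases of TIMP2, 10% are shared with exons of other genes, 6.52% on the opposite strand.

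TIMP1 had 3097, 3927 and 2872 scaled reads in the vector and 3309, 3006 and 2555 in the nPD-L1 libraries. The groups overlapped, with a log2 fold change of -0.15 (95% interval -0.46 to 0.15, limma adjusted p = 0.689). TIMP3, which also blocks ADAM17 and several ADAMTS proteases, had 2.02, 0 and 0 (vector) and 5.04, 2.02 and 0 (nPD-L1) scaled reads, and TIMP4 0, 0 and 0 (vector) and 0.84, 0 and 1.93 (nPD-L1). All but 1 of these values correspond to at most 2 reads, so no difference in TIMP3 or TIMP4 was detectable at this depth.

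None of the 8 MMPs tested of 18 was called, and their median log2 fold change was -0.074. MMP7 (matrilysin), a small secreted protease typical of epithelial tumors, had 507, 587 and 399 scaled reads in the vector and 445, 478 and 506 in the nPD-L1 libraries, a log2 fold change of -0.047 (95% interval -0.38 to 0.28). MMP7 lies with MMP20, MMP10, MMP1, MMP3 and MMP13 in a cluster on chromosome 11, with gaps of 9.3 to 145.2 kb between neighboring members. Of these 6, MMP7 and MMP10 alone passed the filter, MMP10 (stromelysin) at 15.6 ± 6.81 and 19.4 ± 7.87 scaled reads (log2 fold change 0.33).

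The membrane-type MMPs (5 of 6 tested) were led per kilobase by MMP17, which is anchored by a lipid, with 347, 698 and 311 (vector) and 454, 654 and 400.3 (nPD-L1) scaled reads. Replicate 2 was highest in both groups, and the log2 fold change was 0.22 (95% interval -0.41 to 0.85, limma adjusted p = 0.78). MMP15 had 357, 412 and 398 (vector) and 412, 348 and 331 (nPD-L1), with a log2 fold change of -0.10 (95% interval -0.40 to 0.19). MMP16 had 285 ± 27.2 and 299 ± 46.1 (0.063), and MMP24 192 ± 66.2 and 161 ± 17.8 (-0.20), with 21.8% of its exonic bases shared with opposite-strand exons such as those of MMP24OS. MMP14, the main cell-surface collagenase and the activator of MMP2, was the only member tested whose values were all lower with nPD-L1, and is described after its values were seen. It had 42.4, 45.2 and 41.6 (vector) and 27.7, 32.4 and 28.9 (nPD-L1) scaled reads, a log2 fold change of -0.52 (SE 0.25) that did not pass (limma, adjusted p = 0.388; from 0.0608 to 1 over 18 alternatives, none passing).

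The collagenases MMP1 and MMP13 and the gelatinases MMP2 and MMP9 were all below the filter. MMP13 reached the highest value of any member not tested, with 3.03, 20.3 and 9.35 scaled reads in the vector and 0.84, 4.05 and 2.89 in the nPD-L1 libraries, where vector replicate 2 alone exceeded 10. MMP1 had 3.03, 3.39 and 8.31 (vector) and 5.04, 2.02 and 7.72 (nPD-L1), and MMP9 2.02, 5.65 and 4.16 (vector) and 4.2, 0 and 0.965 (nPD-L1), so that neither the presence of a difference nor its absence can be read at this depth. MMP19 passed the filter with 19.6 ± 3.36 and 14.7 ± 8.4 (-0.51; 17.4% of its exonic bases are shared with opposite-strand exons). Every library had at most 7.07 scaled reads of MMP28, 5.79 of MMP25, 2.26 of MMP11, 2.26 of MMP21, 2.02 of MMP3 and 1.93 of MMP20. ADAM21 was the only ADAM not tested, with 9.08, 15.8 and 9.35 (vector) and 2.52, 9.1 and 10.6 (nPD-L1).

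**Figure D3:**
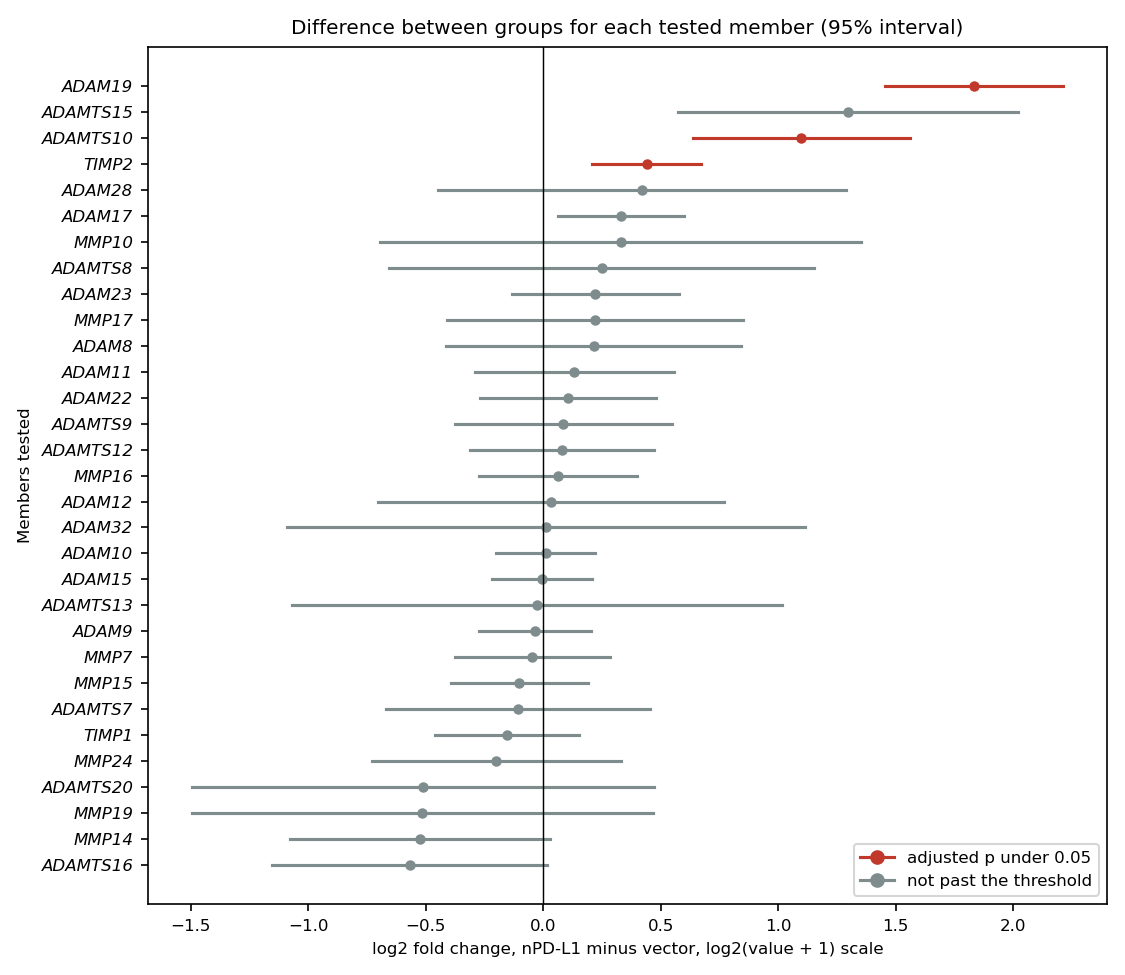
Log2 fold change (nPD-L1 minus vector, on the log2(value + 1) scale) of each of the 31 members tested, with its 95% interval from limma on 3 and 3 libraries. ADAM19, ADAMTS10 and TIMP2 (red) passed at an adjusted p under 0.05, ADAMTS15 and ADAM17 lie to the right of 0 without passing, and the intervals of the other members include 0.

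Counted by overlap alone, 6 of the 31 members tested had all nPD-L1 values above all vector values, against 12% of all genes tested. They were ADAM19, ADAMTS10, TIMP2, ADAMTS15, ADAM17 and ADAMTS12. In 1 of the 31 (MMP14) all nPD-L1 values were below, against 8.54% of all genes tested. Together these 7 are 22.6% of the members tested and 20.6% of all genes tested, a share near the background. A log2 difference of at least 0.5 in size was seen in 7 of 31 members (22.6%) and in 13.6% of all genes tested. Vector replicate 2 was the highest or lowest of the vector libraries in 25 of the 31 members (80.6%) and in 82.3% of all genes tested. It was the highest in 9 of the members and the lowest in 16 (51.6%), against a lowest share of 41.4% over all genes tested. The median SD of log2 values within a group was 0.211 in the vector and 0.146 in the nPD-L1 libraries over all genes, and in the vector group it was 0.82 for ADAM12 and 0.82 for ADAMTS15.

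**Figure D4:**
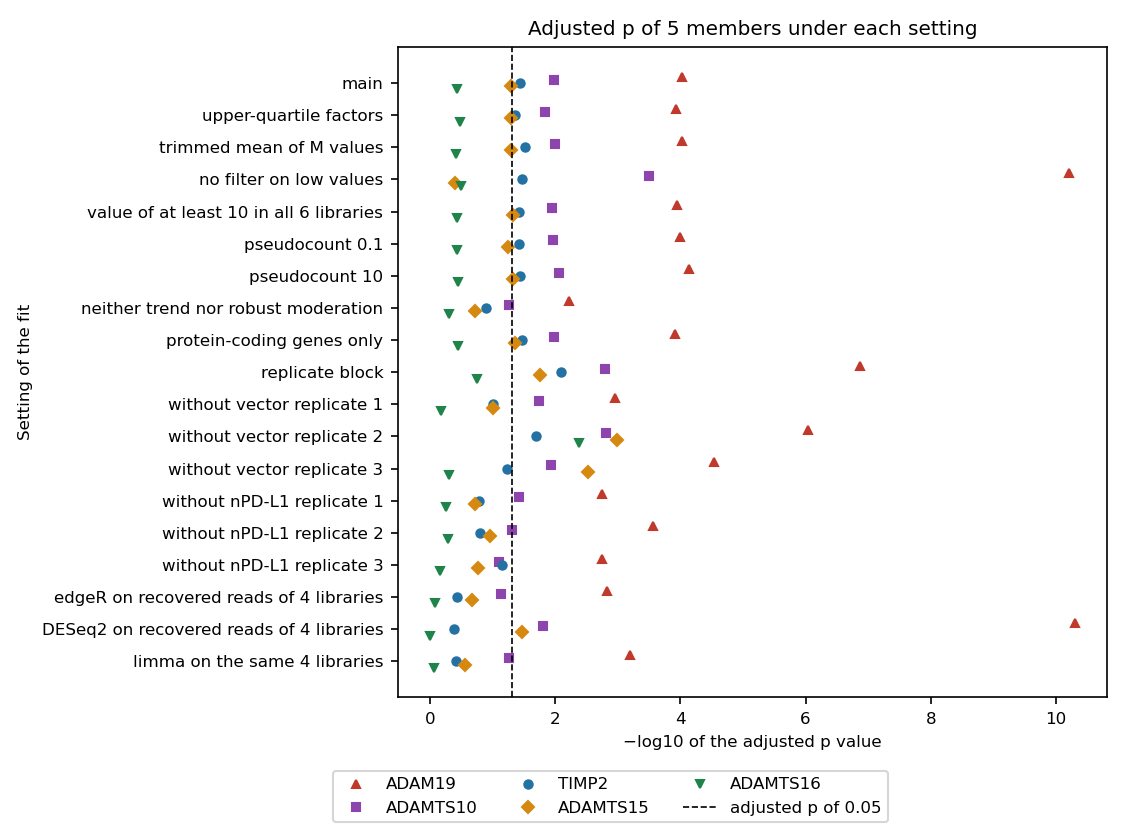
Adjusted p (as -log10, so that values to the right are smaller p values) of 5 members under the main setting and 18 alternatives, with a dashed line at 0.05. ADAM19 stays to the right of the line throughout, ADAMTS10 crosses it in 4 alternatives and TIMP2 in 9, and ADAMTS16 passes only without vector replicate 2.

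The genes that activate, anchor or inhibit these proteases, and proteins they cut, were read from the same fit. Of 79 such genes with a row, 64 were tested, 6 were higher and 2 lower with nPD-L1 (12.5%, against 4.96% of all genes tested), and these 8 passed in all 18 alternatives. The list was chosen with earlier results of these data known, so its share of calls is a description and not a test. Among activators, FURIN, the convertase that removes the pro-domain of many ADAMs, ADAMTS proteases and membrane-type MMPs, had 1273, 1457 and 1286 (vector) and 5301, 5295 and 4864 (nPD-L1) scaled reads (log2 fold change 1.95, SE 0.10, limma adjusted p = 1.25e-06), 1 of 3 convertases tested. In the plasminogen system, which activates several pro-MMPs, the protease PLAU had 3147, 2902 and 3843 (vector) and 3063, 2918 and 3059.9 (nPD-L1, log2 fold change -0.12, adjusted p = 0.71), and its receptor PLAUR 679, 664 and 814 (vector) and 1085, 904 and 889 (nPD-L1, log2 fold change 0.42, adjusted p = 0.105), and neither passed.

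Among 9 partners of ADAM10 and ADAM17, FRMD8, which binds the iRhom proteins and stabilizes their complex with ADAM17 at the cell surface, was the one called, with 1333, 1530.3 and 1323 (vector) and 3400.1, 4030.5 and 3419.7 (nPD-L1) scaled reads (log2 fold change 1.37, SE 0.11, limma adjusted p = 3.02e-05). ADAM17 itself did not pass, as given above. RECK, a membrane-anchored inhibitor of MMPs, had 191, 179.6 and 174 (vector) and 169.8, 169.9 and 205 (nPD-L1), overlapping groups with a 95% interval of the log2 difference from -0.33 to 0.33, and none of the 4 tested inhibitors and inducers of this list was called.

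The shed membrane proteins gave calls in both directions, 2 higher and 2 lower of 21 tested. HBEGF, a ligand of the EGF receptor released by ADAMs, had 298, 409 and 276 (vector) and 777, 986 and 909.7 (nPD-L1) scaled reads (1.45 on the log2 scale, limma adjusted p = 0.000316), and the receptor NOTCH1 453, 259 and 479 (vector) and 1632, 1445 and 1419 (nPD-L1, log2 fold change 1.96, adjusted p = 0.000196). The EGF receptor ligands AREG and EREG, both released by ADAM17, went the other way. AREG had 5551, 6136 and 5492 (vector) and 2967, 2588 and 2665 (nPD-L1, log2 fold change -1.06, adjusted p = 9.76e-05), and EREG 14687, 12732 and 18558 (vector) and 7004, 6699 and 7239 (nPD-L1, log2 fold change -1.12, adjusted p = 0.000649). Of 10 matrix proteins tested, COL1A1, a chain of collagen type I, was called, with 82.8, 63.2 and 49.9 (vector) and 465, 445 and 487 (nPD-L1, log2 fold change 2.84, adjusted p = 7.99e-06). None of the 6 ADAMTS-like proteins and none of the 5 astacin proteases and procollagen C-proteinase enhancers tested was called. These are RNA levels, and protease activity or release of the membrane proteins was not measured by these libraries.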

How the data were processed

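RNA was sequenced from 6 libraries of Hep3B cells with a PD-L1 knockout, 3 per group, assigned by sample title. The submitters' processing notes name CASAVA, HISAT2 2.0.5 and hg38; the read counter is not given in the sources used here. The authors deposited 1 signal value per gene and library, labelled raw counts, which proved to be reads divided by a size factor: 100% of the nonzero values in each library were whole multiples of 1 step (tolerance 0.001). Depths were 18348470, 17427519 and 17584285 reads on genes in vector replicates 1 to 3 and 22253295, 18509665 and 18744564 in nPD-L1 replicates 1 to 3. The authors' columns of group means, log2 fold change (vector over nPD-L1), p and adjusted p were not used.

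For the tests, log2(value + 1) was fitted by limma 3.58.1 (R 4.3.3; eBayes with trend and robust moderation) on genes reaching 10 in 3 or more libraries, with no covariate, Benjamini-Hochberg adjustment over all genes tested and a threshold of 0.05. Levels per kilobase used the gene length in the table. edgeR 4.0.16 and DESeq2 1.42.0 were run only on the 4 libraries (vector replicates 2 and 3, nPD-L1 replicates 1 and 3) whose step lay far enough from 1 for whole reads to be accepted as recovered. The scripts were tested on simulated data. Alternatives were 2 other scalings, 2 other filters, pseudocounts of 0.1 and 10, no trend or robust moderation, protein-coding genes only, a replicate block, each library left out, and the fits on 4 libraries, of which limma on 4 was chosen after seeing the data.

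Full values are given for CD274, members with an adjusted or unadjusted p under 0.05, the 10 highest per kilobase, and TIMP1 to TIMP4; the other members tested are given by level and log2 fold change. Of the related genes, those called and RECK, PLAU and PLAUR are named, and 1 result under this rule is not reported here. Members, lists and tests were chosen with earlier results of these data known. Promoter windows came from RefSeq (GRCh38.p14) and exon overlaps from GENCODE 29 (GRCh38), whose coordinates match all 50 members. A planned search of protein sequences was not run. Genes of these families without a row were not analysed here.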

Additional observations from a re-analysis of the deposited data

How the results depend on the processing

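The counts of calls changed with the processing more than the directions did, and no called value changed its direction. Over all genes, 748 were called in the main analysis and 427 to 1037 with 1 library left out. On 4 libraries, 283 were called with edgeR, 418 with DESeq2 and 307 with limma (the last chosen after seeing the data). The edgeR and DESeq2 fits thus differ from the main analysis in the libraries used as well as in the method. The members called higher numbered 3 in the main analysis, 1 without trend and robust moderation, 1 with edgeR and 1 with limma on 4 libraries, 3 with DESeq2, 5 at an unadjusted p, and 1 to 4 with 1 library left out (1 without nPD-L1 replicate 3). The 3 with DESeq2 were not those of the main analysis. They were ADAM19, ADAMTS10 and ADAMTS15 (DESeq2 adjusted p = 0.0341 for ADAMTS15), and TIMP2 was not called (0.419). The members called lower numbered 0 in the main analysis, with edgeR, with DESeq2 and at an unadjusted p, and 0 to 1 with 1 library left out, the 1 being ADAMTS16 without vector replicate 2. The related genes called numbered 8 to 10 throughout. ADAM19 passed under every setting, ADAMTS10 under 14 of 18 and TIMP2 under 9 of 18, with adjusted p values from 0.00814 to 0.419 for TIMP2. TIMP2 was lost without trend and robust moderation (0.128), in all 3 fits on 4 libraries, and without each single library except vector replicate 2 (0.0599 to 0.167 where it was lost). With the replicate number as a block, 1185 genes and 4 members (higher) were called. The correlations of same-numbered deviations were -0.0127, 0.229 and 0.131 for replicates 1, 2 and 3. Without those of differently numbered libraries beside them, they do not decide whether the numbers mark a pairing. The labels do not state one, and pairing was not assumed. Members that did not reach 10 scaled reads in 3 libraries, among them the collagenases, gelatinases, TIMP3 and TIMP4, were not tested.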
